A study of Mus musculus with 2 samples.

Results

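Cell division genes were measured as a set of 41 genes, named by symbol, of 32285 genes counted in single cells from mouse ovarian tumors. The members are given by name, with no threshold on their values: 17 encode proteins made for DNA replication (S genes), 21 were listed as genes of late cell cycle and mitosis (G2/M genes), and Stmn1, Diaph3 and Neil3 were kept in neither list. Hmgb2, in the G2/M list, is also used by cells outside mitosis, so the G2/M sums do not hold mitotic transcripts alone. Tumors grew from cells lacking p53 and carrying myc and Hras, placed in the peritoneum of female C57BL/6 mice aged 6 to 8 weeks after abrasion of the peritoneal wall. A single library came from the pooled abrasion-site tumors of mice given control IgG, and the other from mice given an Activin A neutralizing antibody, for 10 days. The deposited design text gives 7 control IgG and 8 antibody mice. For its single-cell experiment the study's text gives another number of mice per group, so the number of mice pooled was not settled. The study's text also gives another number of days, so the days are the labels'. All animals carried the same injected tumor cells and the same wound, and groups other than these 2 were not analysed here.

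A cell that divides first copies its DNA and then separates the copies. Release of E2F factors from the retinoblastoma proteins switches on the S genes, and B-Myb and FoxM1, acting through the DREAM complex sites of promoters, switch on the G2/M genes later. In tumors both sets are high in cancer cells and in activated lymphocytes that expand by clones, and low in terminally differentiated myeloid cells.

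Promoter letters differed between the lists. RefSeq promoters (GRCm38.p6, 250 bases before to 50 after the start) were found for 34 of the 41 members, 14 of 17 S genes and 18 of 21 G2/M genes. An E2F site (TTTCCCGC, TTTCGCGC, TTTGCCGC or TTTGGCGC on either strand) was present for 7 of 14 S genes, 1 of 18 G2/M genes (Cdk1) and 2.26% of all 32851 promoters. The cell cycle genes homology region, TTTGAA on either strand, was present for 13 of 18 G2/M genes (72.2%), 1 of 14 S genes (Mcm2) and 17.9% of all promoters. All 13 also held a CCAAT box, a pair of motifs found together in 6.95% of all promoters. CCAAT alone was less selective, with 16 of 18 G2/M genes, 9 of 14 S genes and 37.4% of all promoters. A match is a description of letters and not of a bound site, and overlapping matches were counted apart.

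For the S genes, 3 promoters are shown with E2F sites in capitals: Mcm5, a subunit of the replicative helicase (chr8:75109259-75109558, plus strand), Mcm6, a further subunit (chr1:128359656-128359955, minus strand), and Pclaf, a partner of the PCNA clamp and the S gene with the most UMIs in CD8 T cells (chr9:65890073-65890372, plus strand). In Mcm5 the 2 sites overlap on opposite strands, and Mcm6 holds 3 sites, of which 2 overlap.
Mcm5: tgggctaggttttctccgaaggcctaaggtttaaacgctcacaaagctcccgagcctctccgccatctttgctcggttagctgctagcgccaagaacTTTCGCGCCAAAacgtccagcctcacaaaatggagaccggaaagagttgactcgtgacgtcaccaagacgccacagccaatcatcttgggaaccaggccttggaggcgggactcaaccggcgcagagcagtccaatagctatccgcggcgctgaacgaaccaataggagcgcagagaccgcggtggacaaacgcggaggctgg
Mcm6: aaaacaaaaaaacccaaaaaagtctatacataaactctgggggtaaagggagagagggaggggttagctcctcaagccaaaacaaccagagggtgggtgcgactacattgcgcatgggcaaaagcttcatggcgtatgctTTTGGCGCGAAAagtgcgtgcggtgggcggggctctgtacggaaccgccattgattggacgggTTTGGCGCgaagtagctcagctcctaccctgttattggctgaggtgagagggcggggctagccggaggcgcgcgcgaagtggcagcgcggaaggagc
Pclaf: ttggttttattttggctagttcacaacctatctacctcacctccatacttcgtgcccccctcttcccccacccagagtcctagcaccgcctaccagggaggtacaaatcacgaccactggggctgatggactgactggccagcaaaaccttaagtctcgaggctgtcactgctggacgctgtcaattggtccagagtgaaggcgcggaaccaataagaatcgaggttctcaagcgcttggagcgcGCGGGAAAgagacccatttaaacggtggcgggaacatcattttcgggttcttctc

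For the G2/M genes, 3 promoters are shown with TTTGAA and CCAAT of either strand in capitals. Ccnb2, a mitotic cyclin (chr9:70421505-70421804, minus strand), and Cdc20, the activator of the anaphase-promoting complex (chr4:118437294-118437593, minus strand), had the lowest ratios between the libraries in cancer-like cells. Hmgb2, a chromatin protein (chr8:57511593-57511892, plus strand), carried the most G2/M UMIs in every class. Ccnb1, which had the lowest ratio in CD8 T cells, held 2 CCAAT boxes and no TTTGAA in its window.
Ccnb2: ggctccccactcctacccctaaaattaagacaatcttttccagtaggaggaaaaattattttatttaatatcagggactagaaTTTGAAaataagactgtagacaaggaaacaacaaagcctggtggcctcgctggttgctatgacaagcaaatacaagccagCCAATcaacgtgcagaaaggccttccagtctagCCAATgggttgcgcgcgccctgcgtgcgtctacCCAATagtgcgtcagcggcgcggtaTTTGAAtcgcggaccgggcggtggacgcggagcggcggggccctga
Cdc20: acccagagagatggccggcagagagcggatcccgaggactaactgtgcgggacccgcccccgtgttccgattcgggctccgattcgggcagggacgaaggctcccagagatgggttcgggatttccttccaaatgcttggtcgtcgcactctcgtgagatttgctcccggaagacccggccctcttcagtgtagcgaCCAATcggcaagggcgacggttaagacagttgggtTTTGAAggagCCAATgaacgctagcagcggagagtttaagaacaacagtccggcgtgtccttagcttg
Hmgb2: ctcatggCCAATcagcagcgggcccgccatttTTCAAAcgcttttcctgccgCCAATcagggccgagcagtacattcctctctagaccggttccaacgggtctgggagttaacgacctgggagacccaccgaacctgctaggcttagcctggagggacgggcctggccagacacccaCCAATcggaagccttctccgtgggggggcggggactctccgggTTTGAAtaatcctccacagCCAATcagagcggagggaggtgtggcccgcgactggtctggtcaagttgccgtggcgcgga

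With 1000 to 8500 detected genes, a depth of 1000 to 100000 UMIs and no more than 10% of them mitochondrial, 8770 control IgG cells (median 5719 UMIs) and 6386 antibody cells (median 4660 UMIs) remained, sharing 19 barcodes. The 9 classes were gated on marker genes and held 77.9% and 78.2% of the cells. They ranged from 2989 and 2455 CD8 T cells to 177 control IgG fibroblasts and 139 antibody B cells. The leading genes of each class held its own markers and none of another class. Since the gates required the former and excluded cells passing most other gates, this does not check the class names. Saa3 and Arg1 also led macrophages and Elane led monocytes. UMIs were summed over the cells of a class and expressed as CPM, the count scaled to the total UMIs of the class. With 1 library per group no test between the groups was possible: 95% intervals cover counting error only. Those of sums and their ratios take each UMI as independent. Which cells were sampled, and differences between mice, tumors or library preparations, are not in them. Counts from the 3′ end are not scaled by gene length, so levels of different genes were not ranked. In such sums fewer dividing cells and less RNA per dividing cell cannot be told apart, and shares of cells are given beside them. Of the 41 members, 40 were detected in every class in each library.

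The summed levels fell into a high and a low tier of classes. In the control IgG library, S genes stood at 1553 CPM in CD8 T cells, 1251 in CD4 T cells, 1040 in cancer-like cells and 667 in NK cells, against 494 in B cells and 237 to 332 in macrophages, monocytes, dendritic cells and fibroblasts. G2/M genes stood at 4586 CPM in CD8 T cells, 3975 in CD4 T cells, 2719 in cancer-like cells and 2268 in NK cells, and at 288 to 644 in the other 5 classes. In the antibody library the same 4 classes were highest for both lists, from 784 to 1435 CPM for S genes and from 1571 to 3695 CPM for G2/M genes. The order of neighbors in the lower tier was not kept, as fibroblasts (1095 CPM) and dendritic cells (1039 CPM) passed B cells (630 CPM) for G2/M genes. The tiers of the G2/M genes depended in part on Hmgb2. Without it, antibody fibroblasts (806 CPM) stood above antibody NK cells (655 CPM), and control IgG cancer-like cells (1923 CPM) above CD4 T cells (1823 CPM).

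By gene, 27 of 41 members were highest in CD8 T cells in the control IgG library and 26 in the antibody library, and 12 were highest in cancer-like cells in each. Of these 12, 10 were the same genes, with Cdc20 and Cenpf there under control IgG alone and Mcm3 and Ccne1 with the antibody alone. Over all classes 34 members were highest in the same class in both. Mki67, the antigen by which dividing cells are stained, ranged from 6.27 CPM in monocytes to 252 CPM in CD8 T cells under control IgG, and from 17.8 CPM in macrophages to 218 CPM in CD8 T cells with the antibody. Cdk1, the mitotic kinase, and Ube2c, a ubiquitin-conjugating enzyme of the anaphase-promoting complex, were highest in cancer-like cells, at 174 and 339 CPM in the control IgG library. Cdt1, which licenses origins, was highest in B cells in both libraries (62.3 and 56.2 CPM), and Ccne2, a cyclin of S phase entry, in control IgG CD4 T cells (16.4 CPM), close to its 15.8 CPM in CD8 T cells. Over the 18 class and library points the S and G2/M levels had r = 0.96 and rho = 0.95, a description in which points of one library share its depth.

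Free RNA, taken from barcodes with under 100 UMIs, held the members at 603 and 809 CPM for S genes and 1499 and 1841 CPM for G2/M genes. B cells, macrophages, monocytes, dendritic cells and fibroblasts stood below these values in both libraries, as did antibody NK cells. Free RNA was higher in the antibody library for both lists, and its part in the low tier was not tested beyond the subtraction given with the alternatives.

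**Figure D1:**
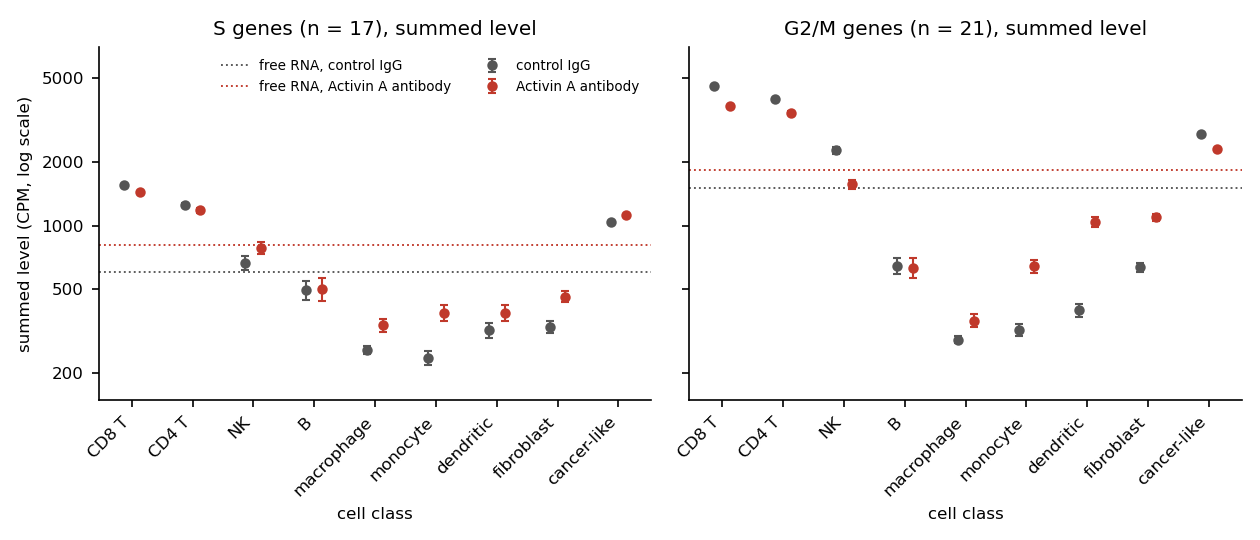
Summed level of the 17 S genes (left) and 21 G2/M genes (right) in CPM on a log scale, by cell class, with control IgG in grey and the antibody library in red; bars are 95% counting intervals and dotted lines are free RNA. CD8 T, CD4 T, NK and cancer-like cells form the upper tier in both panels, and G2/M genes are lower with the antibody in these 4 classes.

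In CD8 T cells the G2/M genes were lower in the antibody library, and the S genes were lower by less. G2/M genes went from 4586 to 3695 CPM (log2 ratio, antibody over control IgG, -0.31, 95% interval -0.33 to -0.30) and S genes from 1553 to 1435 CPM (-0.11, -0.14 to -0.09). Each of the 21 G2/M genes had a ratio below 0, with a median of -0.25 beside 0.03 over all genes tested in the class. A call was set at a 1.5-fold difference among genes with at least 20 UMIs over both libraries: 2 of 41 members were lower by that measure and none higher, where 5.68% of all 13289 genes were lower and 4.91% higher. Of the 41 members, 37 had a ratio below 0. The filter needs 20 UMIs over both libraries together, so in small classes a member can pass through the library where it is high.

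The 2 called genes, a count near the share of all genes that were lower, were Ccnb1 and Ccnb2, cyclins that drive mitosis. Ccnb1 stood at 51.8 CPM under control IgG and 31.0 CPM with the antibody (log2 ratio -0.74, -0.90 to -0.58), and Ccnb2 at 121 and 79.2 CPM (-0.61, -0.71 to -0.50). Birc5, the survivin subunit of the chromosomal passenger complex, stood at 289 and 199 CPM (-0.53), and Ube2c at 281 and 204 CPM (-0.46). At the other end, Ccne2 stood at 15.8 and 18.5 CPM (0.23, -0.01 to 0.47) and Cdt1 at 41.4 and 46.9 CPM (0.18, 0.03 to 0.33). Genes of replication were spread between these ends. The nucleotide enzymes Tyms (-0.39) and Rrm2 (99.7 and 78.2 CPM, -0.35) and Gins2 of the helicase complex (-0.54) lay with the G2/M genes, and Mcm5 stood at 81.8 and 70.5 CPM (-0.22). Pcna, the sliding clamp, stood at 286 and 304 CPM (0.09, 0.03 to 0.15), and Pclaf, which binds it, at 337 and 281 CPM (-0.26). Mki67 (252 and 218 CPM, -0.21) and Top2a (286 and 264 CPM, -0.11), a topoisomerase that untangles chromosomes, had smaller ratios than the cyclins B. Hmgb2 held 49541 of the 96554 G2/M UMIs under control IgG and stood at 2353 and 1883 CPM (-0.32). Of the 3 genes in neither list, Stmn1, a destabilizer of microtubules, stood at 654 and 528 CPM (-0.31), Diaph3, a formin, had -0.32, and Neil3, a DNA glycosylase, -0.54.

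A lower share of CD8 T cells carried G2/M transcripts with the antibody. Cells were thinned to 2000 UMIs each and counted when they kept at least 2 UMIs of G2/M genes other than Hmgb2. Hmgb2 was left out because cells outside mitosis use it. Before thinning it was seen in 87.9% of control IgG CD8 T cells, against 32.9% for Mki67. The share was 30.1% (887 of 2945 cells, exact binomial 95% interval 28.5% to 31.8%) under control IgG and 24.7% (591 of 2390, 23.0% to 26.5%) with the antibody, and 44 and 65 shallower cells were left out. Without thinning the shares were 41.2% and 33.6%, and the median depths 5356 and 4526 UMIs. Mature dendritic cells, taken as a reference with little division, gave 0 of 57 and 0 of 39 cells, with upper limits of 6.27% and 9.03% and depths of 7872 and 7931 UMIs. Their summed G2/M level was nonetheless higher with the antibody, at 147 and 214 CPM (log2 ratio 0.54, 0.05 to 1.03). Without Hmgb2 that ratio was 0.40 (-0.63 to 1.42). Within the counted CD8 T cells, which were picked by these UMIs, the G2/M genes without Hmgb2 stood at 4424 and 4242 CPM and the S genes without Pcna at 2127 and 2181 CPM. Of CD8 T cells, 8.83% and 9.54% passed the cut for S genes alone, 21.7% and 17.8% for both lists and 8.42% and 6.90% for G2/M genes alone.

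Subsets of CD8 T cells gave G2/M levels that were lower with the antibody in each. Cells with a UMI of Gzmb, a granzyme of killing cells, stood at 5249 and 4091 CPM, and those without at 3136 and 2932 CPM. Cells with a UMI of Tcf7 or Lef1, factors of memory-like T cells, stood at 4877 and 3825 CPM, and those without at 3889 and 3490 CPM. Cells with a UMI of Pdcd1, the inhibitory receptor PD-1, stood at 5243 and 4252 CPM, and those without at 3582 and 2826 CPM. Cells in which Gzmb or Pdcd1 was seen were also deeper (medians from 5156 to 6706 UMIs, against 3716 to 4491 UMIs), and the part of depth in these splits was not tested.

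**Figure D2:**
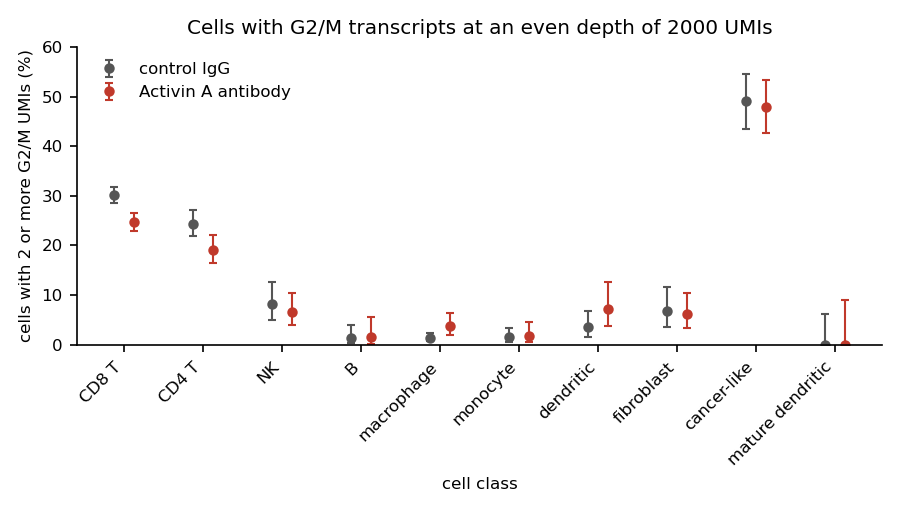
Share of cells with at least 2 UMIs of G2/M genes other than Hmgb2 after thinning to 2000 UMIs, in percent, by class and library (control IgG grey, antibody red), with exact binomial 95% intervals. The shares are 30.1% and 24.7% in CD8 T cells and 49.1% and 48.0% in cancer-like cells, and the mature dendritic reference has none.

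In CD4 T cells both lists were also lower with the antibody. G2/M genes stood at 3975 and 3416 CPM (log2 ratio -0.22, -0.25 to -0.19) and S genes at 1251 and 1181 CPM (-0.08, -0.13 to -0.03). No member passed the call in either direction, beside 5.56% of all genes higher and 5.61% lower, and 33 of 41 members had a ratio below 0. Cdc20 (48.3 and 34.2 CPM, -0.50) and Ube2c (269 and 192 CPM, -0.49) were lowest, and Cdt1 (31.4 and 40.4 CPM, 0.36) and Pcna (256 and 276 CPM, 0.11) highest. Mki67 stood at 201 and 203 CPM, Top2a at 220 and 215 CPM, Hmgb2 at 2151 and 1831 CPM, Rrm2 at 77.3 and 60.9 CPM and Mcm5 at 56.7 and 54.9 CPM. The share of cells with G2/M transcripts was 24.4% (250 of 1024, 21.8% to 27.2%) and 19.2% (155 of 809, 16.5% to 22.0%), and counted cells held 4352 and 4475 CPM of G2/M genes without Hmgb2. The few cells with a UMI of Foxp3, a regulatory T cell gene (23 and 14 cells), went the other way for G2/M genes. They stood at 2742 CPM (2513 to 2987) and 3035 CPM (2669 to 3438), with intervals that overlap. Cells without it stood at 4012 and 3423 CPM.

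In cancer-like cells, named from Dlk1, Hmga2, Lgals7, Mid1 and Krt18, the S and G2/M genes ran in opposite directions. G2/M genes stood at 2719 and 2315 CPM (log2 ratio -0.23, -0.25 to -0.21), with 20 of 21 below 0. S genes stood at 1040 and 1123 CPM (0.11, 0.08 to 0.14), with 13 of 17 above 0. The size of the S difference depended on the upper limits of genes and UMIs per cell. Without those limits the S ratio was 0.028 (0.003 to 0.052) and the G2/M ratio -0.17 (-0.19 to -0.16). The medians were -0.33 for G2/M and 0.16 for S genes, beside -0.06 over all genes tested. Of the members only Cdc20 passed the call as lower (68.1 and 44.3 CPM, -0.62, -0.75 to -0.49) and none as higher, where 8.5% and 4.59% of all 13938 genes did.

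The members at each end belonged to different steps of the cycle. Ccnb2 (78.3 and 54.9 CPM, -0.51), Aurkb, the kinase of the passenger complex (35.7 and 25.5 CPM, -0.49), and Cenpe, a kinesin of the kinetochore (71.9 and 52.7 CPM, -0.45), followed Cdc20. Plk1 (-0.40), Aurka (-0.38) and Ccnb1 (-0.37) lay close behind. Cdc6, a loader of the helicase (11.9 and 15.98 CPM, 0.43, 0.17 to 0.69), and Ccne2 (13.2 and 17.4 CPM, 0.40, 0.16 to 0.64) were highest. All 6 Mcm subunits of the helicase had ratios above 0, from 0.13 for Mcm7 to 0.37 for Mcm2 (35.5 and 45.9 CPM), with Mcm5 at 37.5 and 43.4 CPM (0.21). Gins2 of the helicase complex went the other way and was the lowest S gene (35.7 and 29.6 CPM, -0.27, -0.44 to -0.11). Pcna stood at 174 and 212 CPM (0.28, 0.22 to 0.35), Rrm2 at 36.2 and 36.3 CPM, Pclaf at 176 and 171 CPM and Tyms at 129 and 120 CPM. Mki67 stood at 80.3 and 66.8 CPM (-0.27), Top2a at 270 and 251 CPM (-0.11) and Hmgb2 at 796 and 734 CPM (-0.12). Bub1, a checkpoint kinase, was the one G2/M gene not below 0 (38.8 and 38.9 CPM).

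The share of cancer-like cells with G2/M transcripts was 49.1% (160 of 326, 43.5% to 54.6%) and 48.0% (168 of 350, 42.7% to 53.4%), a log2 ratio of -0.03 (-0.35 to 0.29). Counted cells held 3244 CPM of G2/M genes without Hmgb2 under control IgG and 2701 CPM with the antibody, and 1193 and 1285 CPM of S genes without Pcna. Median depths were 57149 and 55455 UMIs. In CD8 T cells, by contrast, it was the share that differed in value and the level in counted cells that lay close. Whether the 2 classes differ in this was not tested.

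**Figure D3:**
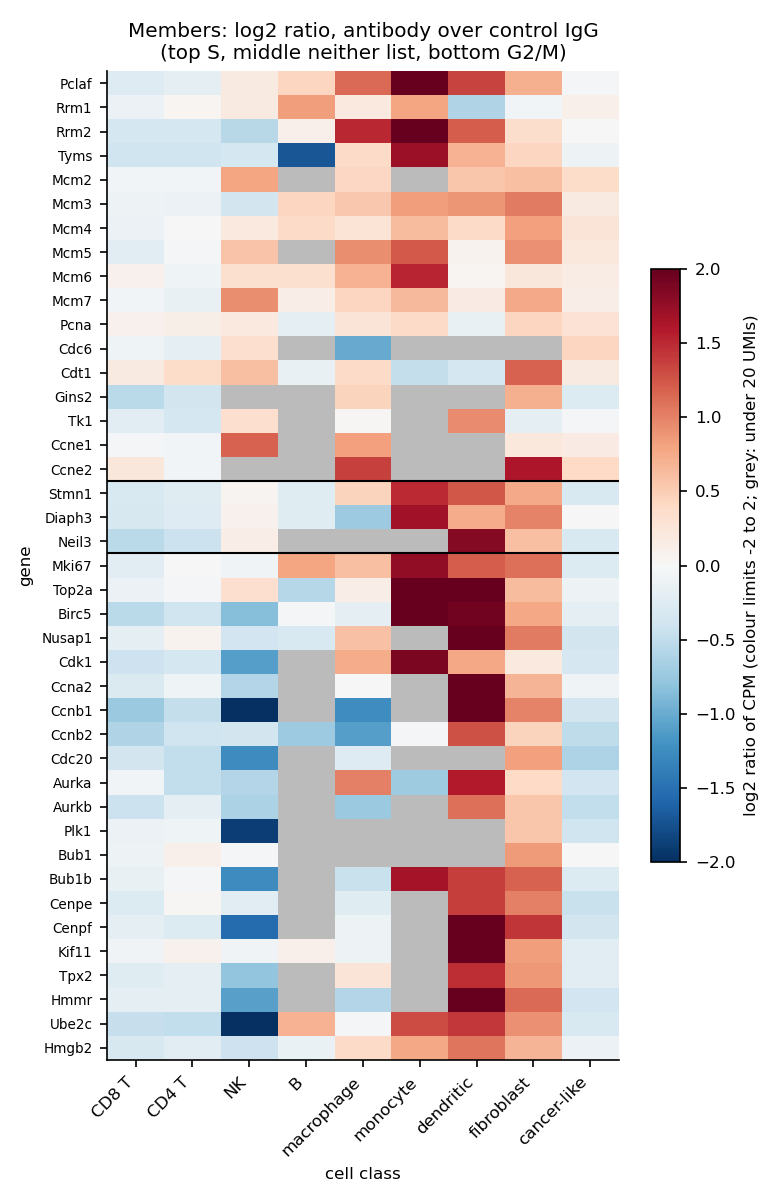
Log2 ratio of CPM, antibody over control IgG, for each of the 41 members (rows, S genes on top, G2/M genes at the bottom) in 9 classes (columns), with colors limited to -2 and 2 and grey where under 20 UMIs were counted. Cancer-like cells show most S genes above 0 (13 of 17) and most G2/M genes below 0 (20 of 21). CD8 T cells are mostly below 0, and dendritic cells and fibroblasts are mostly above 0.

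Further S and G2/M genes outside the 41 members had list medians of the same sign as the members' lists in cancer-like and CD8 T cells. In cancer-like cells 17 of 26 further S genes were above 0 (median 0.06, from -0.13 for Chaf1b, a histone chaperone, to 0.52 for E2f8, an E2F repressor), and 22 of 27 further G2/M genes were below 0 (median -0.20, from -0.48 for Kif23, a kinesin of cell cleavage, to 0.24 for Gtse1, a microtubule-binding protein). In CD8 T cells 17 of 26 further S genes were below 0 (median -0.10, from -0.35 for Rfc2, a clamp loader, to 0.22 for Usp1, a deubiquitinase) and 21 of 27 further G2/M genes (median -0.13, from -0.50 for Cdca8 of the passenger complex to 0.11 for Gas2l3). None of these passed the call in either class. Among 12 G1 cyclins, kinases and E2F factors, and counting genes with at least 50 UMIs, Ccnd3 was lowest in both classes (445 and 336 CPM in CD8 T cells, -0.40, and 121 and 85.8 CPM in cancer-like cells, -0.50). E2f2 was highest in cancer-like cells (6.78 and 10.4 CPM, 0.62) and Ccnd1 in CD8 T cells (1.09 and 2.46 CPM, 1.17), each past the call. Of 12 inhibitors of division, 9 were above 0 in CD8 T cells (median 0.15) and 9 below 0 in cancer-like cells (median -0.27). By the same count of UMIs, Cdkn1a, which encodes p21, was highest among them in CD8 T cells (25.6 and 40.4 CPM, 0.66) and in cancer-like cells (75.2 and 107 CPM, 0.51). Cdkn1c was lowest in cancer-like cells (2.82 and 1.93 CPM, -0.55) and Cdkn2c in CD8 T cells (26.9 and 19.2 CPM, -0.49).

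The log2 of S over G2/M UMIs within a class went from -1.56 to -1.36 in CD8 T cells, from -1.67 to -1.53 in CD4 T cells, from -1.39 to -1.04 in cancer-like cells and from -1.77 to -1.0025 in NK cells, so it was higher with the antibody in all 4. Without Pcna and Hmgb2 the differences were 0.14, 0.06, 0.36 and 0.92. It was lower with the antibody in dendritic cells (-0.31 and -1.43), monocytes (-0.44 and -0.74) and fibroblasts (-0.94 and -1.25). In alternatives chosen after seeing the data it was higher with the antibody by 0.19 in monocytes without cells holding granule genes and by 0.99 in fibroblasts without cells weak in fibroblast markers, so these 2 directions rest on those cells. The intervals of the libraries overlapped narrowly in monocytes (-0.59 to -0.29 and -0.90 to -0.58). They also overlapped in B cells (-0.38 and -0.33) and macrophages (-0.16 and -0.07), where without Pcna and Hmgb2 the differences were 0.03 and 0.37. Without these 2 genes the intervals no longer overlapped in macrophages (0.06 to 0.30 and 0.31 to 0.78) or monocytes (0.30 to 0.88 and -0.26 to 0.24). They did overlap in CD4 T cells (-0.92 to -0.83 and -0.86 to -0.76). In free RNA it was -1.31 and -1.19, and without Pcna and Hmgb2 its difference was -0.08.

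**Figure D4:**
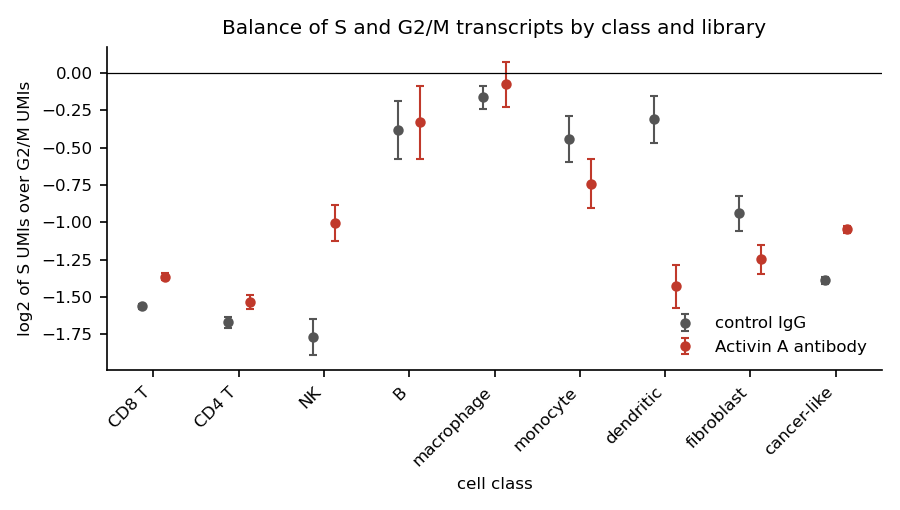
Log2 of S UMIs over G2/M UMIs by class, control IgG in grey and antibody in red, with 95% counting intervals. The antibody point lies above the control IgG point in CD8 T, CD4 T, NK and cancer-like cells and below it in dendritic cells, monocytes and fibroblasts, where the monocyte and fibroblast directions turn without the granule gene and weakly marked cells (differences of 0.19 and 0.99).

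Grouped by their promoters, S genes with an E2F site had median ratios of 0.18 in cancer-like cells (7 genes) and -0.08 in CD8 T cells, against 0.09 and -0.12 for the 7 without. G2/M genes with TTTGAA had -0.33 and -0.18 (13 genes), against -0.37 and -0.27 for the 5 without. G2/M genes with TTTGAA had -0.23 in CD4 T cells, -1.09 in NK cells and 0.82 in fibroblasts, against 0.02, -0.39 and 1.00 without. S genes with an E2F site had -0.11, 0.34 and 0.83 (6 genes) in the same classes, against -0.06, 0.20 and 0.35 without. The ranges of the genes with and without overlapped in all 5 classes compared, and no test was made.

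In NK cells 12 of 21 G2/M genes were lower by the call and 4 of 15 S genes with enough UMIs were higher, beside 7.64% and 9.02% of all genes. Some passed the filter mainly through the library where they were high, such as Plk1 (18 and 5 UMIs) and Ccne1 (9 and 21 UMIs). G2/M genes stood at 2268 and 1571 CPM (log2 ratio -0.53, -0.62 to -0.44), and S genes at 667 and 784 CPM (0.23, 0.09 to 0.38). Ube2c stood at 146 and 29.9 CPM (-2.29, -2.88 to -1.74) and Cenpf, a kinetochore protein, at 76.4 and 26.3 CPM (-1.54, -2.20 to -0.91). Mcm7 stood at 29.8 and 57.1 CPM (0.94, 0.30 to 1.60) and Cdt1 at 23.3 and 35.3 CPM (0.60, -0.16 to 1.39). Top2a was the one G2/M gene above 0 (95.9 and 121 CPM, 0.34), Mki67 stood at 117 and 111 CPM, Hmgb2 at 1225 and 917 CPM, Pcna at 143 and 165 CPM, Rrm2 at 30.7 and 20.8 CPM and Mcm5 at 37.2 and 55.2 CPM. Cells with G2/M transcripts numbered 19 of 230 and 18 of 269 (8.26% and 6.69%), and held 93.7% and 89.8% of the G2/M UMIs without Hmgb2. Hmgb2 itself was seen in 74.1% and 62.7% of NK cells. The 5 highest cells held 49.3% and 55.7% of the G2/M UMIs without Hmgb2, and 9.79% and 22.8% of the S UMIs without Pcna. Without these 5 cells in each library, an alternative chosen after seeing the data, the G2/M ratio was -0.55 and the S ratio -0.0082 (-0.17 to 0.15). T cell markers stood at 667 and 607 CPM in the counted NK cells, beside 711 and 595 CPM in the others. The part of T cells in these values was not tested.

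In dendritic cells G2/M genes stood at 397 and 1039 CPM (log2 ratio 1.39, 1.26 to 1.52), a 2.62-fold difference. All 18 G2/M genes with at least 20 UMIs were higher by the call, beside 6.92% of all genes higher and 9.94% lower. Several reached 20 UMIs mainly through the antibody library, such as Ccna2 (4 and 21 UMIs), Hmmr (5 and 17 UMIs) and Ccnb1 (7 and 20 UMIs). The filter thus favored members high in that library, and most of their UMIs came from the same few cells, so the count is a description only. Among members with at least 50 UMIs, Kif11, the spindle motor (4.12 and 32.2 CPM, 2.96), and Nusap1, a spindle protein (6.70 and 32.9 CPM, 2.30), had the highest ratios, Top2a stood at 24.7 and 100.1 CPM, Mki67 at 21.6 and 50.04 CPM and Hmgb2 at 225 and 473 CPM (1.07). S genes stood at 320 and 387 CPM (0.27, 0.10 to 0.44), with Rrm1, a subunit of ribonucleotide reductase (20.6 and 13.6 CPM, -0.60), and Pcna (124 and 112 CPM, -0.15) lowest by the same limit, Rrm2 at 6.18 and 14.3 CPM and Mcm5 at 12.9 and 13.6 CPM. Cells with G2/M transcripts numbered 8 of 226 (3.54%, 1.54% to 6.86%) and 11 of 151 (7.28%, 3.69% to 12.7%), a log2 ratio of shares of 1.04 whose interval (-0.41 to 2.56) holds 0. The 11 antibody cells were deep (median 20687 UMIs against 8011 in the rest), held 88.5% of the G2/M UMIs without Hmgb2, and carried T cell markers at 20.8 CPM and dendritic markers at 938 CPM, beside 15.7 and 1350 CPM in the rest. Cells passing the T cell gate had been left out of this class, so the T cell level was bounded in advance. Without the 5 highest cells of each library the ratio was 1.23.

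In fibroblasts the direction depended on cells that were weak in fibroblast markers. G2/M genes stood at 636 and 1095 CPM (log2 ratio 0.78, 0.70 to 0.87) and S genes at 332 and 462 CPM (0.48, 0.35 to 0.60), and 16 of 21 G2/M genes and 9 of 16 S genes were higher by the call, beside 9.7% of all genes higher and 7.96% lower. Some S genes passed the filter mainly through the antibody library, such as Ccne2 (8 and 24 UMIs) and Cdt1 (10 and 22 UMIs). Among members with at least 50 UMIs, Cenpf (21.2 and 57.3 CPM, 1.43) and Hmmr, a spindle-associated protein (18.0 and 39.6 CPM, 1.14), were highest, and Tk1, thymidine kinase (11.9 and 10.4 CPM, -0.20), and Rrm1 (43.5 and 41.8 CPM, -0.06) lowest. Mki67 stood at 28.0 and 59.9 CPM, Top2a at 53.9 and 83.5 CPM, Hmgb2 at 179 and 289 CPM, Pcna at 68.7 and 92.8 CPM, Rrm2 at 13.7 and 17.4 CPM and Mcm5 at 6.11 and 11.5 CPM. The share of cells with G2/M transcripts was 6.86% (12 of 175) and 6.22% (13 of 209).

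The 12 control IgG cells with G2/M transcripts carried fibroblast markers (Col1a1, Col1a2, Col3a1, Dcn, Lum, Pdgfra and Pdgfrb) at a median of 34146 CPM per cell, beside 36051 CPM in the other fibroblasts. The 13 antibody cells carried them at a median of 6560 CPM (2248 to 39579 CPM), against 33343 CPM in the others, and held 92.8% of the G2/M UMIs without Hmgb2 at a median depth of 47396 UMIs. In an alternative chosen after seeing these values, cells under 50% of the median fibroblast marker share were left out (24 and 31 cells), and the G2/M ratio then was -1.35 (-1.49 to -1.21) and the S ratio -0.36 (-0.52 to -0.20). Cancer-like markers stood at 94.3 CPM in the counted control IgG cells and 320 CPM in the counted antibody cells, beside 4923 and 5041 CPM in cancer-like cells, and mesothelial markers at 123 and 210 CPM. In the other fibroblasts cancer-like markers stood at 171 and 235 CPM and mesothelial markers at 146 and 101 CPM. Cells passing the cancer-like or mesothelial gate had been left out of the fibroblasts, so these levels were bounded in advance. Whether the counted cells belonged to either kind was not tested. Among fibroblasts with a UMI of Acta2 or Tagln, genes of contractile fibroblasts, 10 of 61 and 9 of 46 were counted in a separate draw of the thinning. Among those without, 1 of 114 and 3 of 163 were. Cells in which Acta2 or Tagln was seen were also deeper (medians of 24260 and 23418 UMIs, against 8598 and 7004 UMIs). The part of depth in this split was not tested.

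In monocytes 4 antibody cells with neutrophil granule genes held most of the G2/M UMIs. G2/M genes stood at 321 and 643 CPM (log2 ratio 1.00, 0.86 to 1.14) and S genes at 237 and 385 CPM (0.70, 0.53 to 0.88), and 18 of the 22 members with at least 20 UMIs were higher and 1 lower by the call, beside 8.83% of all genes higher and 9.94% lower. Some passed that filter mainly through the antibody library, such as Rrm2 (3 and 19 UMIs) and Pclaf (7 and 31 UMIs), so the count is a description only. Among members with at least 50 UMIs, Birc5 (4.31 and 31.4 CPM, 2.87) and Top2a (8.23 and 33.0 CPM, 2.003) were highest and Cdt1 (20.4 and 14.6 CPM, -0.48) lowest, followed by Pcna (138 and 179 CPM, 0.38). Mki67 stood at 6.27 and 21.5 CPM, Hmgb2 at 255 and 436 CPM, Rrm2 at 1.18 and 14.6 CPM, from 3 and 19 UMIs, and Mcm5 at 5.88 and 13.8 CPM. Cells with G2/M transcripts numbered 6 of 391 (1.53%) and 4 of 216 (1.85%). All 4 of the antibody cells, and none of the 6, had UMIs of Elane, the neutrophil elastase gene (418 UMIs, 4500 CPM), and they held 79.6% of the G2/M UMIs without Hmgb2. These 4 cells carried T cell markers at 248 CPM, beside 29.1 CPM in the other antibody monocytes. Under control IgG the values were 80.5 and 55.9 CPM. Leaving out every monocyte with a UMI of Elane, Mpo, Prtn3 or Ctsg (82 and 31 cells), a list chosen after the values were seen, gave -0.28 for G2/M genes (-0.49 to -0.07) and -0.08 for S genes (-0.31 to 0.14). The cells left out were unlike in the 2 libraries. Of the monocytes without G2/M transcripts by the cut, 80 of 385 and 26 of 212 had such a UMI. In 78 and 24 of these it was of Prtn3, and Elane had 0 and 102 UMIs.

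In macrophages S genes were higher with the antibody, and the higher G2/M sum rested on Hmgb2. The share of counted cells was also higher, but whether its interval held 0 depended on the settings of the count. S genes stood at 258 and 337 CPM (log2 ratio 0.39, 0.26 to 0.51), with 16 of 17 above 0. The G2/M sum was 288 and 355 CPM (0.30, 0.18 to 0.42), but 12 of 19 tested were below 0 (median -0.10), and without Hmgb2 the ratio was 0.15 (-0.05 to 0.35). Of 38 members with at least 20 UMIs, 9 were higher and 6 lower by the call, beside 9.16% and 8.4% of all genes. Among members with at least 50 UMIs, Pclaf (5.70 and 12.5 CPM, 1.14) and Aurka, a spindle pole kinase (4.56 and 9.16 CPM, 1.01), were highest, and Diaph3 (8.82 and 5.31 CPM, -0.73) and Bub1b, a checkpoint protein (6.53 and 4.82 CPM, -0.44), lowest. With fewer UMIs, and chosen after their values were seen, Ccnb1 (-1.24), Ccnb2 (-1.10) and Cdc6 (-1.01) lay lower, each with an interval that holds 0. Hmgb2 stood at 178 and 233 CPM (0.38), Pcna at 133 and 159 CPM, Mki67 at 11.7 and 17.8 CPM, Top2a at 14.9 and 16.4 CPM, Rrm2 at 2.39 and 6.75 CPM and Mcm5 at 6.33 and 12.1 CPM. Cells with G2/M transcripts were 17 of 1174 (1.45%, 0.85% to 2.31%) and 12 of 321 (3.74%, 1.95% to 6.44%), and these held 46.5% and 42.9% of the G2/M UMIs without Hmgb2. These counts are from a single draw of the thinning, and the shares expected over draws were 1.75% and 2.94%. With at least 3 UMIs required, the log2 ratio of shares was 1.22 (-0.39 to 2.72). After thinning to 1000 UMIs it was 0.87 (-0.83 to 2.39), and both intervals hold 0. The 12 cells carried T cell markers at 118 CPM, beside 40.7 CPM in the other macrophages, and macrophage markers at 4410 CPM beside 7561 CPM. Antibody macrophages also held 728 hemoglobin UMIs (351 CPM, above the 75.0 CPM of free RNA). The part of engulfed or free RNA and of joined cells in these values was not tested.

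In B cells the sums of both lists had intervals that hold 0. S genes stood at 494 and 502 CPM (log2 ratio 0.02, -0.21 to 0.25) and G2/M genes at 644 and 630 CPM (-0.03, -0.24 to 0.17). Of 20 members with enough UMIs 3 were higher and 2 lower by the call, beside 9.42% and 10.2% of all genes. Among members with at least 50 UMIs, Ube2c (31.1 and 50.2 CPM, 0.69) and Pclaf (38.6 and 52.2 CPM, 0.43) were highest, and Top2a (59.8 and 40.1 CPM, -0.57) and Stmn1 (102 and 86.3 CPM, -0.24) lowest, each with an interval that holds 0. Pcna stood at 173 and 151 CPM, Hmgb2 at 360 and 327 CPM, and Mki67 at 18.7 and 32.1 CPM, from 15 and 16 UMIs. Tyms, chosen after its values were seen, had 21 and 4 UMIs (26.2 and 8.03 CPM, -1.70, -3.71 to -0.14). Rrm2 stood at 14.9 and 16.1 CPM and Mcm5 at 12.5 and 10.0 CPM, the latter under 20 UMIs. A single cell held 63.6% and 69.5% of the G2/M UMIs without Hmgb2 in the control IgG and the antibody library.

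**Figure D5:**
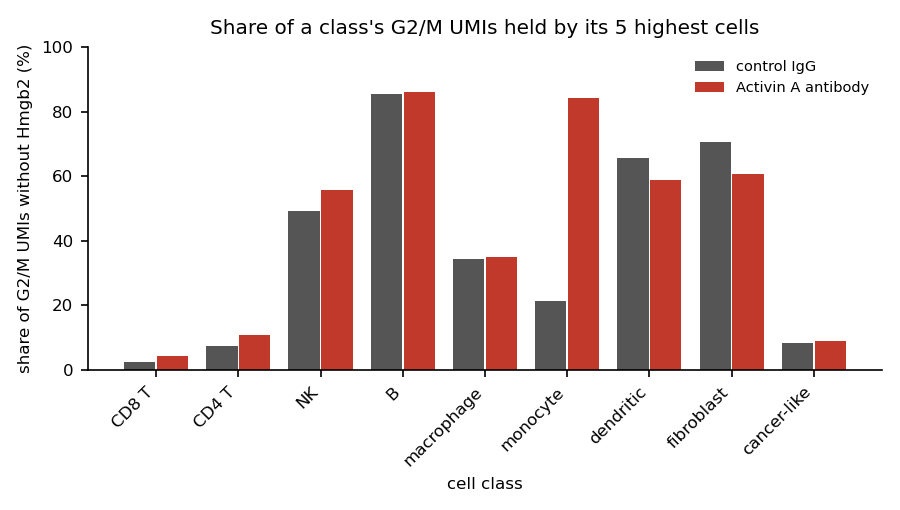
Share of the G2/M UMIs without Hmgb2, in percent, that the 5 highest cells of each class held, control IgG in grey and antibody in red. The 5 cells hold 2.30% and 4.25% in CD8 T cells and 8.17% and 8.80% in cancer-like cells, but 84.1% in antibody monocytes and over 80% in B cells of both libraries.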

How the data were processed

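Single cells of pooled abrasion-site tumors were captured with a 10x Genomics 3′ kit, 1 library per group. The authors deposited raw UMI counts per gene and barcode, not filtered to cells, made with Cell Ranger (7.0.1 per the submitters' processing notes, 4 per the file headers) on mm10. The libraries held 98174850 and 74117462 UMIs. Kept cells had 1000 to 8500 detected genes, a depth of 1000 to 100000 UMIs and no more than 10% of them mitochondrial. Scrublet (scanpy 1.11.5) called 0 doublets in either library and so did not work, and an alternative removed the 5% with the highest scores (423 and 282 cells). A cell entered a class with at least 2 distinct class markers (3 for monocytes) and a marker share of at least 20% of the median share of cells with at least 3 markers. Cells passing gates of 2 lineages were left out, with exceptions. T cells could also pass the NK gate, and NK cells were kept apart from T cells only by Cd3d, Cd8a, Cd8b1, Cd4 and Cd40lg. Passing the monocyte gate excluded no cell from another class. This gate was set after marker distributions were seen.

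UMIs were summed per class and library as CPM, with exact Poisson intervals. Ratios have conditional binomial intervals and shares exact binomial (Clopper-Pearson) ones, at 95%, covering counting error only. No test between the groups was made, since each group is 1 library. The functions were tested on simulated data. Named genes were Mki67, Top2a, Rrm2, Mcm5, Pcna and Hmgb2, the gene with most UMIs per list, and the 2 highest and 2 lowest ratios among members with at least 50 UMIs. Pathway genes were named by the highest and lowest ratio per list. The text adds a few further members after their values were seen. The members and lists were chosen with earlier results of these data known. Python 3.11.15, numpy 2.4.6, scipy 1.17.1, pandas 2.3.3 and matplotlib 3.10.9 were used.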

Additional observations from a re-analysis of the deposited data

Results flagged for a closer look

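Cells above the upper limits of genes or UMIs entered no class. In these 48 control IgG and 69 antibody cells, of which 39 and 62 passed the cancer-like gate, S genes stood at 1123 and 938 CPM and G2/M genes at 4011 and 3555 CPM, at median depths of 110268 and 127069 UMIs.

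The log2 ratios (antibody over control IgG) had opposite signs in different classes, each with a counting interval that leaves out 0. For S genes they were above 0 in NK cells (0.23), macrophages (0.39), monocytes (0.70), dendritic cells (0.27), fibroblasts (0.48) and cancer-like cells (0.11), and below 0 in CD8 T cells (-0.11) and CD4 T cells (-0.083). For G2/M genes they were above 0 in macrophages (0.30), monocytes (1.00), dendritic cells (1.39) and fibroblasts (0.78), and below 0 in CD8 T cells (-0.31), CD4 T cells (-0.22), NK cells (-0.53) and cancer-like cells (-0.23). In alternatives chosen after seeing the data some signs turned: S genes gave -0.0082 in NK cells and -0.0047 in monocytes without the 5 cells with most G2/M UMIs, S and G2/M genes gave -0.084 and -0.28 in monocytes without granule gene cells, and -0.36 and -1.35 in fibroblasts without cells weak in markers. These differences between classes were not tested, as each group is 1 library. The counting intervals take each UMI as independent and do not cover which cells were sampled.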

How the results depend on the processing

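No paired analysis was possible because the design holds a single library per group. Of 64 alternatives each, 47 for S and 39 for G2/M genes lay within the counting interval of the reported log2 ratio, 13 and 22 lay outside it, and 4 and 3 turned the sign of a ratio whose interval leaves out 0. Counting B cells, whose intervals hold 0, 6 and 6 had another sign. All 18 for shares lay within intervals that are wide in small classes: 4 had another sign (-0.27 and -0.30 in B cells, 0.27 and 0.094 in fibroblasts), and monocytes went from 0.27 to 1.86 and 1.84. The cause was not tested. Without Pcna, S ratios were -0.16 (CD8 T), -0.14 (CD4 T), 0.52 (macrophage), 1.05 (monocyte), 0.49 (dendritic) and 0.073 (cancer-like). Without Hmgb2, G2/M ratios were -0.67 (NK), 0.15 (macrophage), 1.65 (monocyte), 1.72 (dendritic) and -0.28 (cancer-like). As a mean over cells, S ratios were 0.21 (monocyte), 0.12 (fibroblast) and 0.14 (cancer-like), and G2/M ratios -0.32 (CD4 T), -0.44 (NK), 0.55 (macrophage), 0.31 (monocyte), 1.02 (dendritic), 0.28 (fibroblast) and -0.15 (cancer-like). With 1 marker more, they were 0.66 for S genes in dendritic cells, and -0.42 (NK) and 1.99 (dendritic) for G2/M genes. Without the 5% of highest doublet scores, B cells gave 0.50 for S and 0.79 for G2/M genes. With free RNA subtracted, G2/M ratios were -0.69 (B) and 0.78 (monocyte). The free RNA part was sized from hemoglobin UMIs, of which B cells held 0 and 6 and monocytes 0 and 7. It was thus 0% under control IgG in both classes, and 16.1% and 7.16% with the antibody. These 2 ratios therefore rest on a few UMIs and correct the antibody library alone. In antibody macrophages 728 hemoglobin UMIs set the part to 100%, so macrophages gave no value. Without upper limits, cancer-like cells gave 0.028 for S and -0.17 for G2/M genes, and fibroblasts 1.05 for G2/M genes. The following were chosen after seeing the data. Without the 5 cells with most G2/M UMIs, S ratios were -0.0082 (NK), -0.0047 (monocyte) and 0.74 (fibroblast), and G2/M ratios -0.27 (CD4 T), -0.13 (monocyte), 1.23 (dendritic) and 1.09 (fibroblast). Without granule gene cells, monocytes gave -0.084 and -0.28. Without cells weak in markers, fibroblasts gave -0.36 and -1.35.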
